A study of Mus musculus with 6 samples.

Results

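Splicing factors and RNA-binding regulators were described in whole lenses of newborn mice, as the genes whose single symbol names an SR protein (Srsf), a kinase of SR proteins (Srpk1, Srpk2, Clk1 to Clk4), an hnRNP or PTB protein, an SF3, Snrp or Prpf component of the spliceosome, a numbered RBM protein, or a member of the Celf, Mbnl, Rbfox, Khdrbs or Elavl families. Of 18193 genes measured, 123 met this rule. Of these, 2 (Rbm46os and Rbm3os) are named as antisense transcripts of RBM genes rather than as protein genes. The rule uses names alone and no measured value, but it was written with earlier results of these data known.

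The study compared lenses of transgenic Balb/c mice with those of wild-type Balb/c mice, all 2 days old and with no treatment named, on 3 Affymetrix arrays per genotype. Per genotype 12 lenses were collected according to the design text, and their division among the 3 replicates is not described. Since separate animals are not named for the replicates either, p-values reflect the spread among these 6 samples alone, and that spread may be technical. The labels name neither the transgene nor the promoter that drives it, and whole lenses hold both epithelium and fiber cells. The arrays are called T1 to T3 for transgenic and W1 to W3 for wild-type replicates. The lens label was borne out by 9 measured lens markers, whose mean log2 level was 13.25 to 13.43 on transgenic and 13.59 to 13.65 on wild-type arrays. Their differences had a median of -0.064, with 6 below 0 and 3 above. Only Bfsp1 passed, lower in transgenic lenses (-1.66, limma adjusted p = 0.000406). T3 stood apart, with a mean over 10 skin markers of 10.01 against 6.24 to 6.85 on the other arrays and over 10 skeletal muscle markers of 8.33 against 5.42 to 5.82. T2 had the highest mean over 6 markers of pigment epithelium and iris, 8.72 against 7.21 to 7.93 on the other arrays. For Rpe65 alone T2 was not highest, at 4.66 against 5.03 on T3. All 6 differences lay above 0 (median 0.54) and none passed. The gene Foxe3, a forkhead factor of the lens epithelium, stood at 13.33, 13.42 and 13.39 on the transgenic arrays and at 8.54, 8.86 and 8.82 on the wild-type arrays, the largest rise of the series (4.64 ± 0.10, SE, on the log2 scale). All levels below are log2 values after quantile normalization, with a median over all probe sets of 5.34. Precision is limited by the number of arrays, and in whole-lens RNA fewer cells of a type and less RNA per cell cannot be told apart.

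As background, the spliceosome removes introns from pre-mRNA through small nuclear ribonucleoproteins (snRNPs), such as U2 with its SF3A and SF3B complexes and the tri-snRNP with its PRPF proteins. SR proteins bind exons and mostly favour their inclusion, and SRPK and CLK kinases control SR proteins by phosphorylation. Proteins of the hnRNP class often oppose them. Families such as RBFOX, MBNL, CELF, KHDRBS and ELAVL, with tissue-restricted and with widely found members, set cell-type splicing or mRNA stability. In the lens, CELF1 and RBM24 are known as RNA-binding proteins needed for normal development. A level on these arrays is that of a transcript, and splicing itself was not measured.

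Of the 123 members, 6 passed the test, all of them lower in transgenic lenses: Rbm38, Rbfox3, Hnrnph3, Elavl4, Rbfox1 and Celf4. None of the members was higher at that threshold (limma, adjusted p under 0.05), and 9 were higher and 19 lower at an unadjusted p under 0.05. Of all 18193 genes, 2099 were higher and 1974 lower at that unadjusted p. Over all genes tested, 4.55% were called, 2.61% lower and 1.93% higher (475 and 352 genes, and 666 and 252 after shifting the arrays to a common median instead). The members' share called, 4.88%, was thus near the background. The share called lower was the same 4.88%. The median difference over the members was -0.038 on the log2 scale, against 0.011 over all genes, and 94 of the 123 members differed by less than 0.25 in size. The groups did not overlap for 32 members, 9 higher and 23 lower, while over all genes this held for 28.8% (15.3% higher and 13.5% lower). Leaving out 1 array left 2 to 6 members lower. Of the members, 2 (Hnrnph3 and Rbm38) passed without W2, 4 without T1, T2 or W3 each, 5 without T3 and 6 without W1 (Clk4 in place of Celf4). Without limma's moderation of the variance 0 members passed (3 higher and 13 lower at an unadjusted p under 0.05, not counted over all genes). The two-sided test of limma with Benjamini-Hochberg adjustment over all 18193 genes was used throughout.

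**Figure D1:**
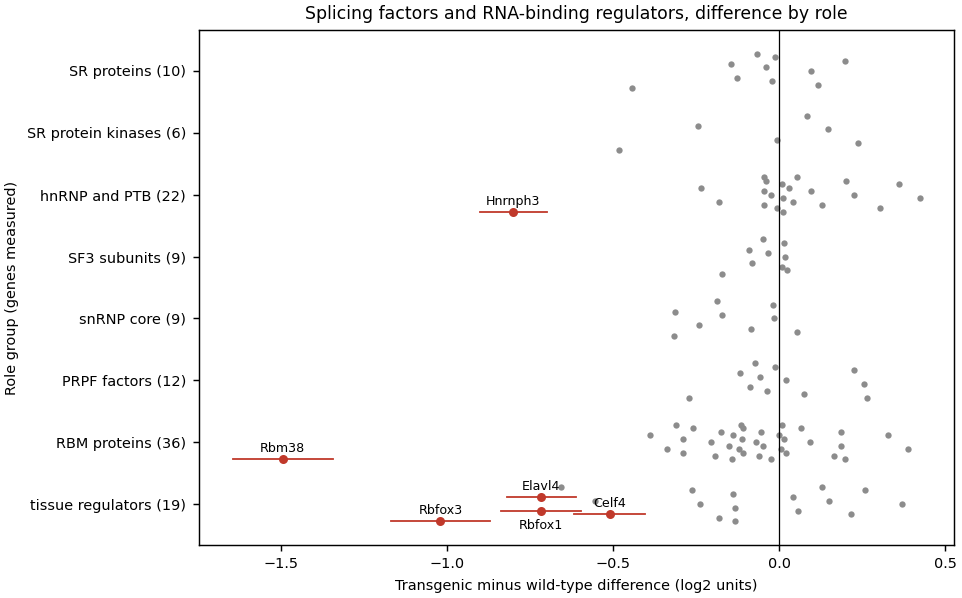
Transgenic minus wild-type difference of each of the 123 members in log2 units (x axis) by role group (y axis, number of genes measured in parentheses). Red points with bars (± SE) passed the test and lie between -1.50 and -0.51, and the grey points did not pass and gather around 0.

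None of the SF3, Snrp and Prpf members, which name components of the spliceosome, passed. Outside the rule Lsm2 and Snrnp48 fell, as given with the other splicing genes. Among 9 SF3 subunits, the U2 snRNP proteins that recognise the branch point region, differences ran from -0.17 to 0.025 and no pair of groups was free of overlap. Sf3b4 stood at 9.11, 9.26 and 9.11 on the transgenic and 9.06, 9.46 and 9.46 on the wild-type arrays. Its difference of -0.17 had a 95% interval of -0.46 to 0.12. Sf3a1 differed by -0.090 (interval -0.29 to 0.11) and Sf3b6 by -0.081 (interval -0.27 to 0.11).

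Of 9 Snrp genes, which encode the Sm ring and other snRNP proteins, 8 lay below 0 with a median of -0.17 and none passed. Over all genes 47.7% lay below 0. Further probe sets of these genes above the median level did not all share that sign. They differed by 0.37 and 0.13 for Snrpd3, 0.060 for Snrpb, -0.032 for Snrpg and -0.21 for Snrpb2. The smallest p was that of Snrpa1, encoding the U2 protein A′, at 8.19, 8.15 and 8.35 on the transgenic and 8.64, 8.46 and 8.53 on the wild-type arrays. The groups did not overlap, and the difference of -0.31 ± 0.09 (SE) missed the threshold (limma adjusted p = 0.103). Further probe sets of Snrpa1 did not fall, with differences of 0.16 and 0.0048. Snrpn, an imprinted gene whose protein replaces SmB in neurons, differed by -0.32 ± 0.11 (0.158) and Snrpg, for the SmG protein, by -0.19 ± 0.10 (0.299).

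Of 12 Prpf genes none passed, and the differences ran from -0.27 to 0.26. Prpf38a, for a protein that joins the spliceosome before its activation, stood at 8.83, 8.74 and 8.76 against 9.0, 9.03 and 9.12, lower on every transgenic array (-0.27 ± 0.08, SE; limma adjusted p = 0.104). Over all settings the difference of Prpf38a ran from -0.38 to -0.034. In the other settings that kept all arrays its limma adjusted p ran from 0.0495 to 0.794. Prpf8, which encodes the scaffold of the catalytic core, went the other way, at 9.97, 9.99 and 9.85 against 9.60, 9.72 and 9.72 (0.25 ± 0.09, SE; 0.134). Prpf6, for a bridging protein of the tri-snRNP, differed by 0.23 ± 0.09 (0.207), while its second probe set differed by -0.23.

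Among 10 SR protein genes none passed, and Srsf10 came closest. Srsf10, whose protein represses splicing when it is dephosphorylated, stood at 8.43, 8.46 and 8.61 on the transgenic and 9.09, 8.93 and 8.81 on the wild-type arrays. The groups did not overlap, and the difference was -0.44 ± 0.10 (SE; limma adjusted p = 0.0531). It passed in 5 of 9 other settings that kept all arrays and with none of the 6 arrays left out in turn (adjusted p from 0.0268 to 0.817 over the former). Srsf1, for the prototype SR protein, differed by 0.20 (95% interval -0.12 to 0.52) and Srsf9 by -0.14 (-0.39 to 0.10).

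Of the 6 kinases of SR proteins, 3 differed upward and 3 downward and none passed. Clk4 had the smallest p, at 7.59, 7.45 and 7.71 on the transgenic and 7.84, 8.18 and 8.18 on the wild-type arrays. Each transgenic array lay below each wild-type array, and the difference was -0.48 ± 0.12 (SE; limma adjusted p = 0.0695). A second probe set of Clk4 differed by -0.69 ± 0.11 and passed over all probe sets (adjusted p = 0.0132). Clk1 differed by -0.24 (95% interval -0.53 to 0.039), Clk2 by -0.0064 (-0.26 to 0.25), Clk3 by 0.084 (-0.15 to 0.32), Srpk1 by 0.15 (-0.061 to 0.35) and Srpk2 by 0.24 (-0.090 to 0.57). The muscle-type kinase gene Srpk3, which the rule does not include, was the one kinase of this kind that rose, as given with the other splicing genes.

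Of 22 hnRNP and PTB genes, Hnrnph3 fell and 21 did not pass. Hnrnph3, whose product belongs to the hnRNP H and F group that binds runs of G, stood at 8.52, 8.55 and 8.39 on the transgenic and 9.31, 9.14 and 9.42 on the wild-type arrays. The highest transgenic value lay below the lowest wild-type value, and the 1.74-fold difference (-0.80 ± 0.10, SE; limma adjusted p = 0.00636) passed with each array left out in turn. Its relative Hnrnph2 stood at 9.20, 9.10 and 8.94 against 8.92, 8.63 and 8.42, higher on every transgenic array without passing (0.42 ± 0.14, SE; 0.127). Hnrnpul2, for a scaffold-type hnRNP U-like protein, stood at 9.82, 9.91 and 9.84 against 9.61, 9.50 and 9.37 (0.36 ± 0.09, SE; 0.0696). The PTB genes, repressors of neuronal and muscle exons, differed little: Ptbp1 by 0.0098 (95% interval -0.18 to 0.19), Ptbp2 by 0.012 (-0.25 to 0.28) and Ptbp3 by 0.23 (-0.15 to 0.60). For Ptbp3, T3 was the array that stood out, at 8.42 against 7.88 on both other transgenic arrays. The signs of Ptbp1 and Ptbp2 turned with both other scalings of the arrays.

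Of 36 RBM genes, Rbm38 fell and 35 did not pass, with differences of those 35 between -0.39 and 0.39. Rbm38, known as a p53 target whose protein binds and stabilises or represses mRNAs such as that of the cell cycle inhibitor p21, had the largest change of all members. It stood at 8.0, 7.64 and 7.88 on the transgenic arrays and at 9.04, 9.44 and 9.53 on the wild-type arrays. The groups lay more than 1 log2 unit apart at their nearest values, and the 2.82-fold difference was -1.50 ± 0.15 (SE; limma adjusted p = 0.00237). Rbm38 passed with each array left out (adjusted p up to 0.0175) and has a single probe set here, as Hnrnph3 does.

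Rbm8a, for the exon junction complex protein Y14, stood at 9.35, 9.30 and 9.39 against 9.87, 9.64 and 9.71 (-0.39 ± 0.09, SE; limma adjusted p = 0.0540). The groups did not overlap, the call was missed narrowly, and a second, dimmer probe set differed by 0.076. Rbm33 differed by -0.34 ± 0.12 (0.153), and its further probe sets differed by 0.090 and 0.052. Of the 36 RBM genes, 8 did not reach the median of all probe sets in either group, and changes at such levels are measured less well.

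**Figure D2:**
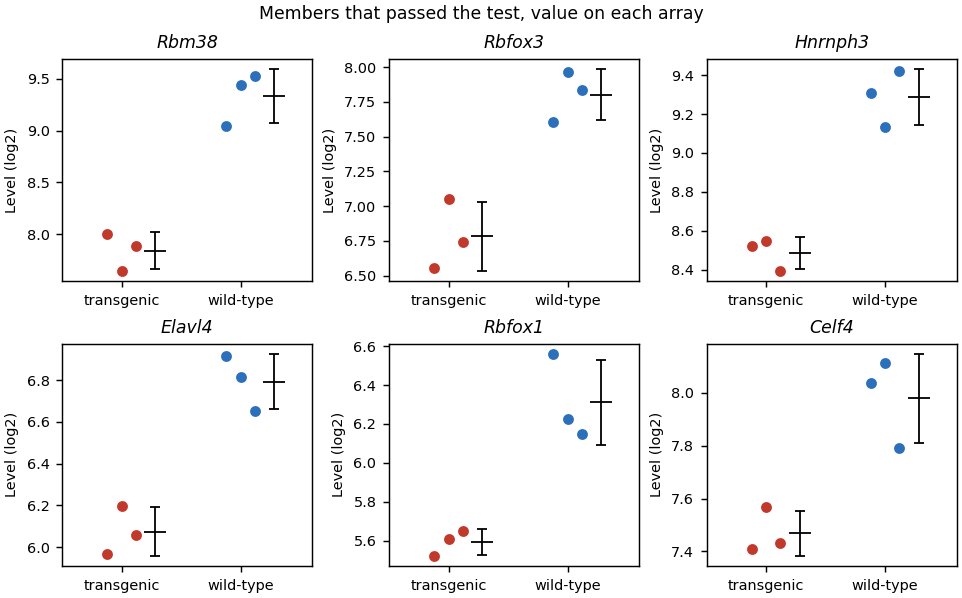
Log2 level on each of the 6 arrays for the 6 members that passed the test, with transgenic arrays in red and wild-type arrays in blue and black bars for the mean ± SD (n = 3 each). The scale differs between panels and does not start at 0. In each panel all transgenic values lie below all wild-type values, as for Rbm38 at 7.64 to 8.0 against 9.04 to 9.53.

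The regions just before the transcription start are shown for the called members outside Celf4 that have a single start in the table, since these genes moved the same way. They are the 250 bases before the start from RefSeq on GRCm38.p6, 5′ to 3′ on the strand of the gene, and capitals mark matches to any of the 5 motifs searched. Hnrnph3 is at chr10:63023850-63024099 on the minus strand, Rbm38 at chr2:173021652-173021901 on the plus strand and Rbfox3 at chr11:118761042-118761291 on the minus strand.
Hnrnph3: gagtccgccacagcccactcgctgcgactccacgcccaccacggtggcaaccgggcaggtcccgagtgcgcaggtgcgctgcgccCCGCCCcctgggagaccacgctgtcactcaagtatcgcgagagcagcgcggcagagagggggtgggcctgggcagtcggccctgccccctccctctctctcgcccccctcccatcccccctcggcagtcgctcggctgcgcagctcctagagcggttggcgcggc
Rbm38: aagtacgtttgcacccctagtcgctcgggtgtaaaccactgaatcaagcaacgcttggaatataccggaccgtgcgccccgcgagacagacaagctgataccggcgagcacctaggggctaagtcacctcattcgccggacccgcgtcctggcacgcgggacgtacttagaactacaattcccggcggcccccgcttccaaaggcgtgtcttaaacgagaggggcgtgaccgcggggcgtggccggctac
Rbfox3: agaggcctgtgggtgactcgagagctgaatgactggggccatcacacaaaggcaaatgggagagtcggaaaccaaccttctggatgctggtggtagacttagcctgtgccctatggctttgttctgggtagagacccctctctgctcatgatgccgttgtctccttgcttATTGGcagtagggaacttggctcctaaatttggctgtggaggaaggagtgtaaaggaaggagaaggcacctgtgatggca

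The motifs, searched on both strands and none contained in another, were the GC box GGGCGG, the CCAAT box CCAAT, the ETS core CCGGAAG, the TATA box TATAAA and the forkhead core TAAACA. In these windows the Hnrnph3 region held 1 GC box, the Rbfox3 region 1 CCAAT box and the Rbm38 region no match. The forkhead core was in none of the 9 windows of the 5 called members outside Celf4, whose windows were not looked at singly. The ratio of observed to expected CpG, high in CpG islands, was 0.753 for Hnrnph3, 1.18 for Rbm38 and 0.182 for Rbfox3, so the Rbfox3 window differed from the others in base composition. For 104 members the table held 154 windows, with a median CpG ratio of 0.796 against 0.373 over all 32851 windows of the table. A GC box was in 51.3% of the members' windows and 32.7% of all, a CCAAT box in 44.8% and 33.8%, an ETS core in 17.5% and 6.91%, a TATA box in 8.44% and 12.4%, and the forkhead core in 5.19% and 12%. The full table also holds many noncoding gene models, and these matches are a description of letters, not of binding.

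The Rbfox, Elavl, Celf, Khdrbs and Mbnl families held the other 4 calls. Not all of their genes are tissue-restricted, since Rbfox2 and Elavl1 are found in many tissues. Of the 19 genes of these families, 4 fell, none rose and 15 did not pass, a share called lower of 21.1% beside 2.61% of all genes. All 4 calls ended without W2, and 2 of them (Rbfox3 and Elavl4) held with the probe sets of each gene averaged. The families were grouped with earlier results of these data known. Those that fell were Rbfox1 and Rbfox3, Elavl4 and Celf4, all of which are best known from neurons. The same families also held genes that went the other way. Of the 19 genes, 12 lay below 0 and 7 above, with Celf3 and the neuronal Elavl3 among the latter. Further probe sets of Elavl3 above the median level lay below 0, at -0.37 and -0.19.

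Rbfox3, which encodes the neuronal nuclear antigen NeuN, stood at 6.55, 7.05 and 6.74 on the transgenic and 7.60, 7.97 and 7.83 on the wild-type arrays. This 2.03-fold difference (-1.02 ± 0.15, SE; limma adjusted p = 0.0117) had no overlap between groups, and the adjusted p was 0.0567 without W2 and 0.0590 without W3. Averaged over the probe sets of Rbfox3 the difference was -0.53 (0.0223). Rbfox1, for the relative that reads the same UGCAUG element, stood at 5.52, 5.61 and 5.65 against 6.56, 6.22 and 6.15. It also fell without overlap (-0.72 ± 0.12, SE; limma adjusted p = 0.0205), with transgenic values close to the median of all probe sets, where background may limit the fold, and with an adjusted p of 0.0702 without T1, 0.0789 without T2 and 0.0663 without W2. Averaged over the probe sets of Rbfox1 the difference was -0.25 and did not pass (0.176). Rbfox2, the member of the family found in many tissues, stood at 7.35, 7.64 and 7.61 against 7.84, 7.96 and 7.58. Its groups overlapped, and the difference of -0.26 had a 95% interval of -0.56 to 0.033.

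Elavl4, for the neuronal stabiliser of mRNAs HuD, stood at 5.97, 6.20 and 6.06 on the transgenic and 6.91, 6.81 and 6.65 on the wild-type arrays, with no overlap. The difference was -0.72 ± 0.10 (SE; limma adjusted p = 0.0117), and 0.0604 was the adjusted p without W2. All 3 probe sets of Elavl4 passed over all probe sets, the others at -0.52 and -0.82. Elavl2, also neuronal, varied widely within groups, at 5.26, 5.65 and 4.74 against 6.33, 5.94 and 5.35, and did not pass (-0.66 ± 0.29, SE; 0.229). Elavl3 differed by 0.13 (95% interval -0.30 to 0.56) and Elavl1, for the ubiquitous HuR, by -0.13 (-0.36 to 0.10).

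Celf4 stood at 7.41, 7.57 and 7.43 on the transgenic and 8.04, 8.11 and 7.79 on the wild-type arrays. The groups did not overlap, but the difference of -0.51 ± 0.11 (SE; limma adjusted p = 0.0409) lost its call with any 1 array left out, at adjusted p from 0.0503 without W3 to 0.140 without W2, and with the mean of its probe sets (0.178). Celf1 stood at 11.70, 11.66 and 11.36 against 11.58, 11.82 and 11.73, a difference of -0.14 (95% interval -0.41 to 0.14). Further probe sets of Celf1 above the median level differed by -0.64, -0.50, -0.28 and -0.22, and of these only the first passed over all probe sets. Celf3 was higher on every transgenic array, at 5.54, 6.12 and 5.59 against 5.39, 5.39 and 5.36, without passing (0.37 ± 0.15, SE; 0.209). Celf2 differed by -0.13, Celf5 by -0.18 and Celf6 by 0.042, and both Celf5 and Celf6 lay under the median level of all probe sets in each group.

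The Khdrbs and Mbnl genes gave no call. Khdrbs3, for the STAR-family protein SLM2, stood at 7.01, 7.76 and 7.13 against 8.08, 7.89 and 7.60, where T2 lay within the wild-type range (-0.55 ± 0.21, SE; 0.169). Khdrbs2, for its relative SLM1, was lower on every transgenic array (-0.24 ± 0.09; 0.178), and Khdrbs1, for SAM68, differed by 0.26 (95% interval -0.12 to 0.64). The muscleblind genes, whose products promote adult splicing patterns, differed by 0.057 for Mbnl1, 0.15 for Mbnl2 and 0.22 for Mbnl3, with intervals that all held 0. T3, the array with skin and muscle transcripts, was the highest of the transgenic arrays for all 3 Mbnl genes, and the sign of Mbnl1 turned to -0.060 without it.

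**Figure D3:**
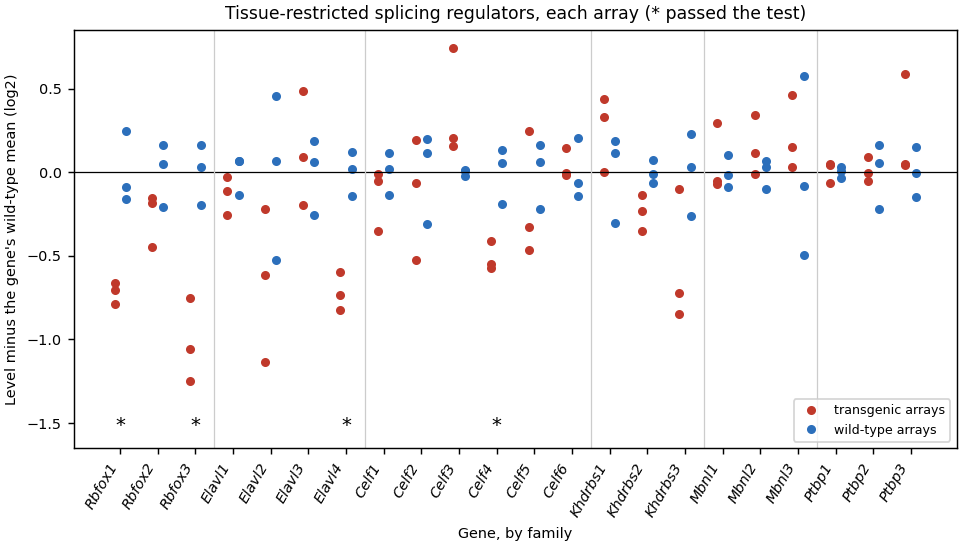
Level on each array minus the wild-type mean of the same gene (y axis, log2 units) for 22 genes of the Rbfox, Elavl, Celf, Khdrbs, Mbnl and Ptbp families (x axis), with transgenic arrays in red and wild-type arrays in blue. The starred genes Rbfox1, Rbfox3, Elavl4 and Celf4 passed the test and fell by 0.51 to 1.02.

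Markers of neural tissue had differences of the same sign as these 4 genes. Of 18 measured markers of neural retina and neurons, all 18 lay below 0 with a median of -0.46, and none passed. Their mean level was 6.83, 7.50 and 7.15 on the transgenic and 7.87, 7.69 and 7.26 on the wild-type arrays, so the groups overlapped, with T2 above W3. Of the 18 markers 2 were dimmer than the median probe set, and single values ran from 4.64 to 10.2. The part of neural RNA in the 4 falls was not tested.

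**Figure D4:**
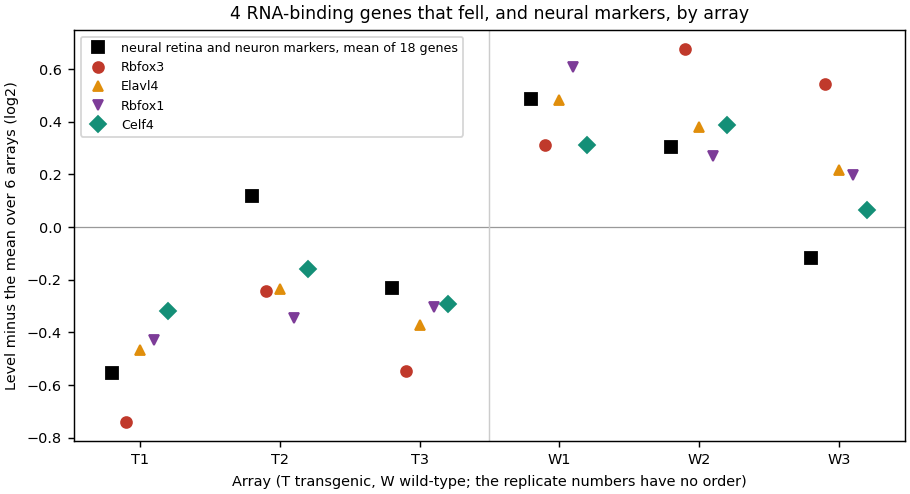
Level on each array minus the mean over the 6 arrays (y axis, log2 units) for the mean of 18 neural retina and neuron markers (black squares) and for Rbfox3, Elavl4, Rbfox1 and Celf4 (coloured symbols). The marker mean lies between 6.83 and 7.50 on transgenic and between 7.26 and 7.87 on wild-type arrays, and the 4 genes were chosen for display because they passed the test.

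Most members were read by more than 1 probe set, and these did not always move alike. The 123 members had 353 probe sets, and 88 members had more than 1, up to 12 for Rbm39. In a fit over all 45037 probe sets, 3.68% of all were called and 15 of the members' (4.25%), 14 lower and 1 higher. For 6 members a further probe set was called while the main one was not. These were Clk4, Celf1, Srsf2, Rbm5, Rbm39 and Rbm24, of which the last 4 were named after their values were seen.

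Srsf2, which encodes the SR protein SC35, had calls in both directions. Its main probe set stood at 10.53, 10.67 and 10.54 against 10.70, 10.48 and 10.28, a difference of 0.097 that did not pass. A dimmer one stood at 7.82, 7.80 and 7.82 on the transgenic and 7.18, 7.27 and 7.21 on the wild-type arrays, higher without overlap (0.59 ± 0.08, SE; limma adjusted p = 0.00761). Another stood at 9.29, 9.47 and 9.62 against 9.89, 10.02 and 9.91, lower without overlap (-0.48 ± 0.11, SE; 0.0481).

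A single direction was called for the others. One probe set of Rbm39, whose product is a U2AF-related factor, stood at 8.44, 8.25 and 8.47 against 9.01, 9.12 and 9.16 (-0.71 ± 0.10, SE; limma adjusted p = 0.00763), while the main one differed by -0.12. One of Rbm5, whose product regulates splicing of apoptosis genes, stood at 5.15, 4.92 and 5.09 against 6.01, 5.67 and 5.63 (-0.72 ± 0.12, SE; 0.0211), and the main one differed by -0.048. One of Rbm24 stood at 8.61, 8.15 and 8.23 against 8.76, 9.13 and 9.16 (-0.68 ± 0.15, SE; 0.0489), and the main one by -0.29. For Celf1 the called probe set stood at 8.92, 8.71 and 8.73 against 9.33, 9.47 and 9.48 (-0.64 ± 0.10, SE; 0.0122).

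Unequal change of 2 probe sets of a gene was tested directly, in a fit chosen after seeing the data. For each further probe set above the median level, its log2 ratio to the main probe set of the same gene was compared between genotypes. Over 8034 such ratios 4.9% were called, and of the members' 157 ratios 5 (3.18%), a share below that background. The 5 were in Rbfox3 (a ratio change of 0.81 ± 0.15, SE; limma adjusted p = 0.0231), Srsf10 (0.77 ± 0.14; 0.0236), Sf3b4 (0.45 ± 0.10; 0.0358), Celf1 (-0.50 ± 0.12; 0.0431) and Prpf6 (-0.46 ± 0.11; 0.0493). In Rbfox3 the second probe set differed by -0.21 where the main one fell by 1.02. In Srsf10 the fourth probe set differed by 0.32 where the main one differed by -0.44. Which part of a transcript a probe set reads was not used here, so these ratios do not show a change in splicing.

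**Figure D5:**
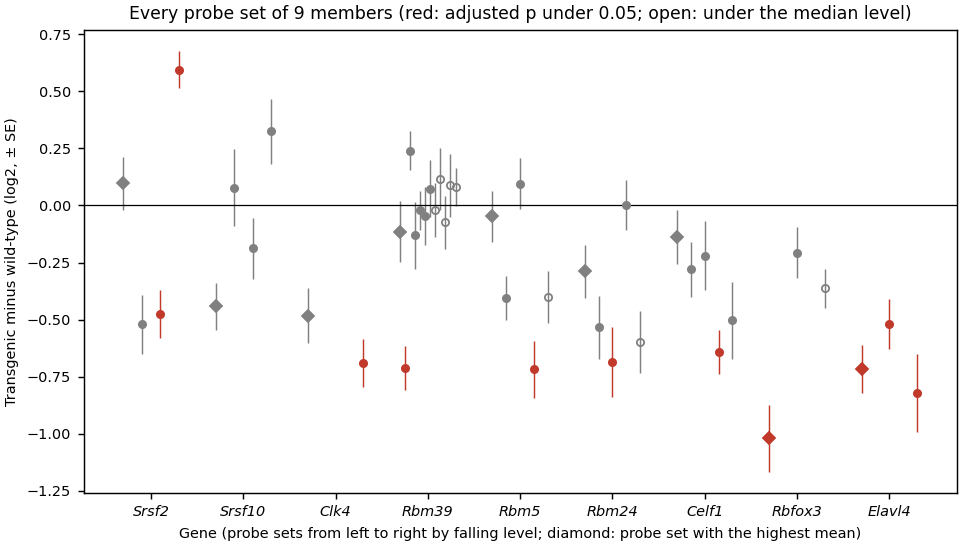
Transgenic minus wild-type difference ± SE (y axis, log2 units) of every probe set of 9 members (x axis), ordered within a gene by falling level, with a diamond for the main probe set, red for an adjusted p under 0.05 over all probe sets and open symbols under the median level. Srsf2 has red points at 0.59 and -0.48, and all 3 probe sets of Elavl4 are red and below 0.

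The other splicing genes, a list of 112 outside the rule of which 103 were measured, held 4 calls. Of these 1 rose and 3 fell, a share of 3.88% beside 4.55% of all genes, and the median difference was -0.057. Srpk3, for the kinase of SR proteins known from muscle, stood at 7.60, 7.41 and 7.90 on the transgenic and 5.72, 5.83 and 6.33 on the wild-type arrays. Its 3.20-fold rise (1.68 ± 0.18, SE; limma adjusted p = 0.00332) passed with each array left out, and without T3, the array with muscle transcripts, it was 1.55 (adjusted p = 0.00441). A second probe set of Srpk3 rose by 0.88, and averaged over its 4 probe sets the difference was 0.68.

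Tardbp, for the RNA-binding protein TDP-43, stood at 8.92, 8.78 and 8.97 against 9.56, 9.49 and 9.47 (-0.62 ± 0.09, SE; limma adjusted p = 0.0105). It fell without overlap, its adjusted p was 0.0525 without W2, and its 4 other probe sets differed by -0.11 to 0.082 without passing. Lsm2, for a protein of the U6 snRNP ring, fell by 0.50 ± 0.08 (SE; 0.0209), and Snrnp48, for a protein of the minor spliceosome, by 0.49 ± 0.09 (0.0303). Lsm2 lost its call without T2, W2 or W3 (adjusted p up to 0.0933), and Snrnp48 without any array but T1 (up to 0.113). The 3 other probe sets of Snrnp48 differed by -0.14 to 0.27 without passing.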

How the data were processed

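RNA of whole lenses was hybridised to 6 Affymetrix arrays after IVT labelling with biotin, per the labels' protocols. The values the authors deposited are log2 levels, 1 for each probe set on each array. That scale was read from their range; how probes were summarised and arrays normalised is not given in the sources used here. Control probe sets (64) were set aside, and the other 45037 were quantile normalised with limma 3.58.1 in R 4.3.3. GEO's platform annotation, updated through RefSeq, named the genes. Among probe sets with a single symbol, the one with the highest average across the 6 arrays stood for its gene, which gave 18193 genes. Probe sets with several symbols, among them those of Rbm3 and Snrpd1, were not used.

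Genotypes were compared with lmFit and eBayes at a Benjamini-Hochberg adjusted p of 0.05. SDs are over 3 arrays, and SEs and 95% intervals are limma's. Simulated data of this comparison had 18193 genes, of which 200 were changed in each of 5 sets. In them 20.4% of log2 differences of 0.5, 91.2% of those of 1 and 98.8% of those of 2 were recovered. Of the simulated calls 5.02% were false. The data themselves held 827 called genes, so recovery there may differ. Named were called members, the 3 smallest p of each role group, the kinases, and called genes of the list of other splicing genes. All genes of the Rbfox, Elavl, Celf, Khdrbs, Mbnl and PTB families were named as well. Members and lists were chosen with earlier results of these data known. Alternatives covered scaling, dim genes, probe sets, the variance model, array weights, a replicate block and each array left out.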

Additional observations from a re-analysis of the deposited data

How the results depend on the processing

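Hnrnph3 and Rbm38 fell under every setting but the test without moderation (adjusted p = 0.0699 and 0.0720). That test called 0 members (3 higher and 13 lower at an unadjusted p under 0.05), and 45 genes higher and 79 lower over all genes. It called none of the other splicing genes (0 higher and 0 lower, with 3 and 21 unadjusted). Such unadjusted counts were not made over all genes for this test. Members called lower numbered 10 after shifting the arrays to a common median, and members called higher numbered 1 with trended robust variances and 2 with array weights. Array weights gave 599 genes higher and 790 lower over all genes. Leaving out 1 array gave 2 to 6 members lower, with 2 without W2, 70 to 249 genes higher, 156 to 385 lower, and 0 to 3 of the other splicing genes lower. The other splicing genes called lower numbered 5 after shifting to a common median and 5 with array weights. The members' median was -0.090 on the values as deposited and -0.13 after shifting to a common median, where the median over all genes moved to 0.0011 and -0.035.

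Deviations of same-numbered arrays were weakly correlated (-0.052, 0.084 and 0.028). Of the 6 arrays, 3 correlated best with their own number in the other genotype. With 3 arrays per genotype these values cannot settle whether same-numbered arrays were handled together. With the replicate block 3 members fell (Hnrnph3, Rbfox3 and Rbm38), 69 genes rose and 154 fell over all genes, and 0 of the other splicing genes fell.

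Some members that passed in no setting changed sign. Averaged over all probe sets of a gene, the differences were 0.028 for Elavl1, -0.15 for Elavl3, -0.0028 for Mbnl1, -0.042 for Prpf6, -0.045 for Ptbp1, -0.049 for Ptbp2, 0.054 for Sf3b4, 0.038 for Sf3b6 and -0.048 for Srsf1. On the values as deposited they were -0.012 for Mbnl1, -0.030 for Ptbp1 and -0.062 for Ptbp2, and after shifting to a common median -0.0099 for Clk3, -0.049 for Mbnl1, -0.066 for Ptbp1 and -0.099 for Ptbp2. With array weights Clk2 was at 0.0086 and Mbnl1 at -0.0071. With 1 array left out the range was -0.30 to 0.064 for Celf2, -0.028 to 0.14 for Celf6, -0.087 to 0.095 for Clk2, -0.052 to 0.29 for Elavl3, -0.060 to 0.12 for Mbnl1, -0.032 to 0.50 for Mbnl3, -0.011 to 0.047 for Ptbp1 and -0.097 to 0.094 for Ptbp2. The causes were not tested. In the simulated data, differences of 0.5 were mostly missed at this number of arrays.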
